A study of Mus musculus with 16 samples.

Results

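The genes described here are 9 potassium channel genes of the mouse urinary bladder: Kcnma1, Kcnmb1, Kcnmb2 and Kcnmb4 of the large-conductance calcium-activated (BK) channel, Kcnn2, Kcnn3 and Kcnn4 of the small- and intermediate-conductance calcium-activated channels, Kcnq5 of the Kv7 family and Kcnk3 of the K2P family. They were named by symbol, and every probe whose identifier maps to such a symbol was taken, which gave 14 of the 55681 probes on the array. Of these, 11 probes of 8 genes entered the test, and 10 of them were well above background on all 16 arrays.

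BK channels open when the membrane depolarises and calcium rises inside the cell, and the potassium that leaves pulls the membrane back toward rest. In bladder smooth muscle this limits the action potential and the contraction that follows it, and calcium released locally from the sarcoplasmic reticulum is a main trigger. Kcnma1 encodes the pore and voltage sensor, and the beta subunits set how readily the channel answers to calcium. Small-conductance channels are gated by calcium through bound calmodulin and not by voltage, while Kv7 and K2P channels hold the resting potential.

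The study compared gene expression in the bladder of C57BL/6 mice at maturity and in old age, in each sex, beside measurements of bladder function. Mature mice (MAT) were 12 months old and aged mice (AGED) 27 to 30 months, and each of the 4 groups, defined by age and sex, had 4 bladders. The tissue was the bladder body, which holds muscle, urothelium, connective tissue, vessels and nerve endings together. Total RNA from each bladder was labelled with Cy3 and hybridised to an array of its own.

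The 16 arrays lay on 2 slides of 8, with the females on slide 1 and the males on slide 2, and on both slides MAT samples held row 1 and AGED samples row 2. Sex and slide therefore cannot be told apart, nor can age and row, and a fit of each sex alone is also a fit of each slide alone. The share of probes well above background ran from 52.3% in AGED male 1 to 68.2% in MAT female 2, and it differed by age. In females it was 59.9% to 63.2% in AGED and 64.6% to 68.2% in MAT samples, with no overlap, and in males 52.3% to 61.2% and 60.4% to 65.9%. Its part in the lower values of dim probes reported below was not tested. The 75th percentile of log2 signal was 9.18 in AGED male 1, against 9.90 to 10 in the other AGED males.

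All levels below are log2 signals from which the 75th percentile of the same array was subtracted, so that 0 stands for that percentile. Changes are AGED minus MAT, and a standard error (SE) goes with each. As the samples are labelled, signs here run opposite to those in the study's own table of top genes, which was not resolved. Were the ages exchanged, every sign would turn, and Kcnmb1 in males, the only member called, would read 2.01-fold higher in place of lower. With the t-test of the methods and a 2-fold change, 364 probes were higher and 165 lower in AGED females. In AGED males 235 were higher and 420 lower. The study too counted more genes up than down in females and fewer up than down in males. It counted genes, whereas these are probes, and the male count depends on the filter. With no filter on dim probes, limma called 667 probes higher and 212 lower in AGED males. Such counts do not settle the direction of any gene. A probe was called when its limma p, adjusted by the Benjamini-Hochberg method over 36972 probes, was under 0.05 and its change at least 2-fold; the test of whether the age change differed between the sexes had no fold limit.

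In males 1 member probe, that of Kcnmb1, fell with age, where 0.544% of all probes tested were called lower. In females limma called 0 of 11, against 0.173% of all probes called in either direction; 1 member had an unadjusted p under 0.05, and the t-test named in the study's methods called 0 at either its raw or its adjusted p. For the difference between the sexes limma also called 0 of 11, against 0.0974% of all probes, and 2 members had an unadjusted p under 0.05, both more negative in males, as had 4.94% of all probes; the t-test was not run on this difference. At an unadjusted limma p under 0.05, 4 member probes were lower in AGED males (8.35% of all probes) and 1 in AGED females (5.49%), and 0 were higher in either sex. Of all genes, taken as 1 probe each, 7.75% were higher in males and 4.54% in females. Under a normexp background correction the male counts of member probes were 1 lower and 1 higher. No share over all probes is given here for that correction. The median change of the 11 probes was -0.37 in males and -0.04 in females, against 0.00 and -0.01 over all probes, and 7 of 11 lay below 0 in each sex. Under normexp the male median was -0.06, the value of Kcnma1 probe A_51_P187352, against 0.13 over all probes. With array weights it was -0.16, the value of Kcnn2, against 0.02. A lower signal from the mixed tissue of the bladder body can come from fewer cells of a type or from less RNA per cell. The arrays cannot tell these apart.

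Kcnma1, the pore-forming subunit, was measured by 2 probes that did not give the same picture in males. On probe A_55_P2071656 the MAT males read 0.46, 0.55, 0.21 and 0.78 and the AGED males 0.40, 0.78, 0.59 and 0.38. The MAT females read 0.61, 0.26, 0.12 and 0.72 and the AGED females 0.64, 0.33, 0.07 and 0.26. The groups overlapped almost wholly in both sexes. The change was 0.04 (SE 0.17, limma adjusted p = 0.944) in males, where scaling to the median turned it to -0.03, array weights gave 0.21 and normexp 0.29, and -0.10 (SE 0.17, limma adjusted p = 0.913) in females. The 95% confidence intervals, -0.33 to 0.41 and -0.47 to 0.27, lie inside a 2-fold change on both sides. The female value was -0.21 without AGED female 1, -0.0051 without MAT female 4 and -0.20 under normexp.

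On the dim Kcnma1 probe A_51_P187352 the MAT males read -2.21, -2.03, -2.41 and -2.10 and the AGED males -2.87, -2.19, -2.49 and -2.70. In that probe 3 of 4 AGED males lay below the lowest MAT male, while AGED male 2 lay inside the MAT range. The change was -0.37 in males (SE 0.16, limma adjusted p = 0.259) and 0.02 in females (SE 0.16, limma adjusted p = 0.986), so neither passed the test. The male value was -0.15 with array weights and -0.06 under normexp. Which transcripts each probe reads was not examined here.

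Kcnmb1 encodes the beta-1 subunit, the accessory protein typical of smooth muscle, which raises the calcium sensitivity of the BK channel. Its probe A_66_P131851 read 0.99, 0.87, 0.80 and 0.43 in MAT males and -0.15, 0.17, -0.69 and -0.28 in AGED males. In females it read 1.28, 1.30, 1.25 and 0.94 at maturity and 1.30, 1.17, 1.43 and 1.03 in old age. Every AGED male lay below every MAT male, as did 3.81% of all probes tested, whereas AGED and MAT females overlapped. By mean the order was AGED females at 1.23 ± 0.17 (SD over 4 bladders), MAT females at 1.19 ± 0.17, MAT males at 0.77 ± 0.24 and AGED males at -0.24 ± 0.35. The female groups, next to each other in that order, did not differ beyond their spread, and MAT males overlapped with MAT females by the highest male and the lowest female value.

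In AGED males Kcnmb1 fell by 1.01 log2 units (SE 0.18, 95% confidence interval -1.39 to -0.63, limma adjusted p = 0.0114), a 2.01-fold decrease to 49.7% of the MAT level. An exact permutation test, two-sided, over the 4 and 4 males gave p = 0.0286, the smallest that 4 against 4 can give. In females the change was 0.04 (SE 0.18, confidence interval -0.34 to 0.42, limma adjusted p = 0.974), and the exact permutation p was 0.714. The male change less the female change was -1.05 (SE 0.25, confidence interval -1.58 to -0.51), with a limma adjusted p of 0.129, so the sexes were not shown to differ in this test.

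The male change sits close to the 2-fold limit. Without AGED male 3 it was -0.86, without AGED male 4 -0.99, without MAT male 1 -0.94 and without MAT male 2 -0.98, and with array weights -0.97, all under the limit with adjusted p between 0.0108 and 0.0414; fitting males alone gave an adjusted p of 0.175 and the t-test of the methods 0.280. At its unadjusted p with a 2-fold change, the form the study used, that t-test kept the call. A normexp background correction, which started from the median spot signal in place of the processed signal, so that input and correction changed together, moved it to -1.77 (adjusted p 2.77e-05) and the difference between the sexes to -1.83 (adjusted p 0.00150), past its threshold, while the median of all probes moved to 0.13 in males; over all alternatives the adjusted p ran from 2.77e-05 to 0.280 for the male change and from 0.00150 to 0.262 for the difference.

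**Figure D1:**
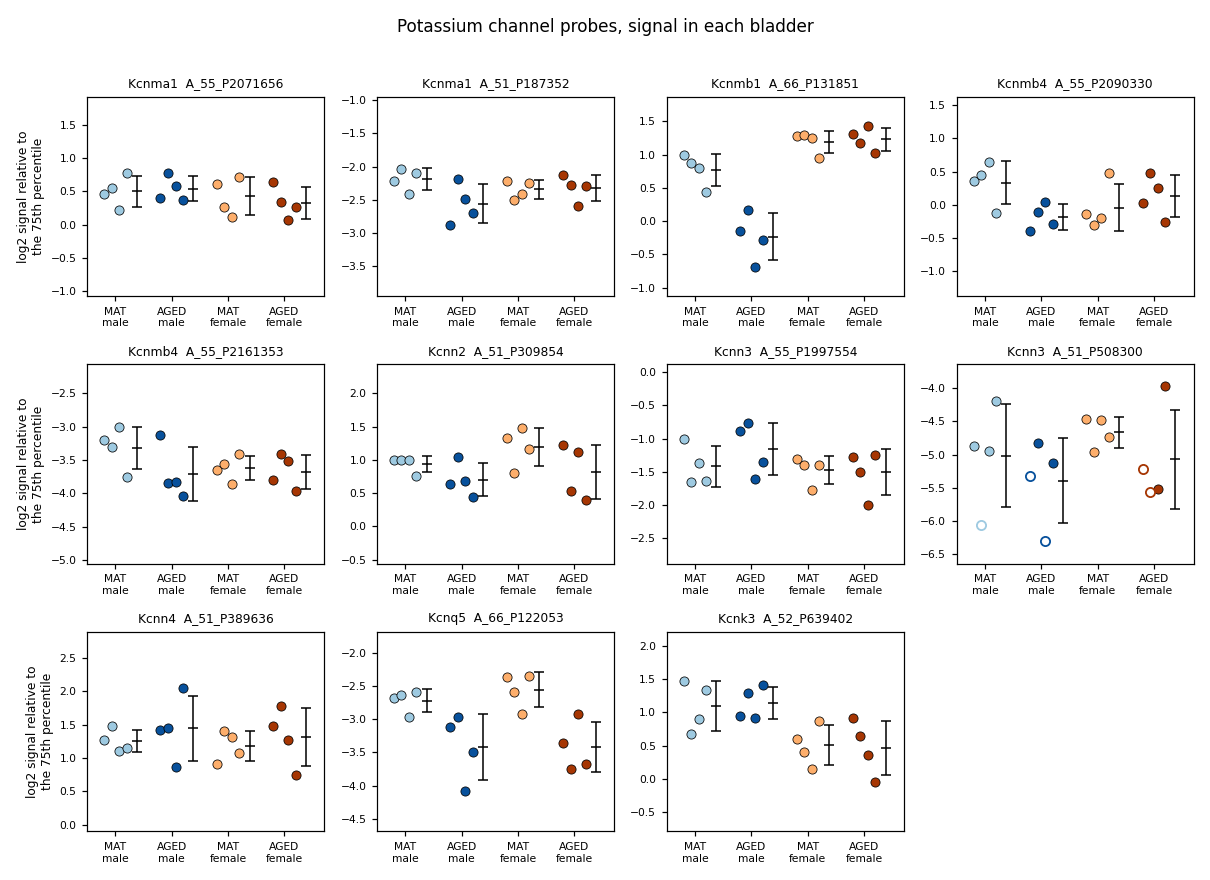
Log2 signal relative to the array's 75th percentile (vertical axis) of the 11 member probes tested, by group; each point is 1 bladder, open where the probe was not well above background, and the bar is mean and SD. The AGED males lie apart from the MAT males in Kcnmb1, from 0.17 down to -0.69 against 0.99 down to 0.43.

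Beta and pore subunits were also compared within each array, a comparison added after the values had been seen. Kcnmb1 less Kcnma1 (probe A_55_P2071656) was lower by age in males, with a change of -1.05 (SE 0.27), and all 4 AGED males lay below all MAT males (exact permutation p = 0.0286). In females the same change was 0.14 (SE 0.26, exact permutation p = 0.629). A change in this difference shows that the probes changed unequally, and it does not show that Kcnma1 was constant. Under normexp the male value was -2.07. With the dim Kcnma1 probe A_51_P187352 subtracted, the male value was -0.64 (SE 0.25, exact permutation p = 0.0571), 3 of 4 AGED males lay below all MAT males, and the female value was 0.02 (SE 0.21, exact permutation p = 0.943).

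The marker lists of the muscle types were read beside this fall. All 12 smooth muscle markers were well above background on all arrays, Cnn1 being the most abundant, and their summed signal, in multiples of the 75th percentile, was 1510, 1473, 1456 and 1529 in MAT males and 1729, 1508, 1629 and 1413 in AGED males. The log2 change of that sum was 0.07 in males (exact permutation p = 0.400) and 0.00 in females (exact permutation p = 1). Leaving out an array moved the male sum between 0.02 and 0.12 and the female sum between -0.10 and 0.16. Of the 12 genes limma called 0 in either sex. At an unadjusted p under 0.05 there were 0 in males, where 7.75% of all genes were higher and 8.26% lower. In females 1 was lower, where 5.77% of all genes were.

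The summed signal of skeletal muscle markers was lower in AGED males. Of 7 genes listed, 5 were well above background on all arrays, Acta1 was the most abundant and Mylpf was below background throughout. The summed signal was 57.9, 50.6, 70.2 and 58.9 in MAT males and 48.7, 34.8, 35.6 and 21.0 in AGED males, a log2 change of -0.81 (exact permutation p = 0.0286, or 0.371 adjusted over the 26 tests of list sums). In females it was 50.8, 60.2, 50.9 and 37.5 at maturity and 58.4, 40.3, 51.6 and 58.0 in old age, a change of 0.07 (exact permutation p = 0.686). All AGED males lay below all MAT males and the female groups overlapped. Limma called 0 of the 5 genes tested in males, with 2 lower at an unadjusted p under 0.05, where 8.26% of all genes were; the part of these cells in the Kcnmb1 result was not tested.

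The promoter of Kcnmb1 is shown because it belongs to the only member called. RefSeq (GRCm38.p6) places the 250 bases before its start at chr11:33962763-33963012 on the + strand.
Kcnmb1: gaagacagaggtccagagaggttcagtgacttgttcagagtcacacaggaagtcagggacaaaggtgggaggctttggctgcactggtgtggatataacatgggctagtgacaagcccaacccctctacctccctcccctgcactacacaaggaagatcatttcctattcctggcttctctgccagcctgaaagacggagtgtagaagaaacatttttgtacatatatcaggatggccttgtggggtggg
The CArG box, the motif bound by serum response factor in many smooth muscle promoters, was searched on both strands. It has 0 matches in this window and 0 in any of the 8 promoters that the table holds for 7 member genes, against 1.47% of 32851 promoters. No match says only that these letters are not in these windows.

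The other beta subunits were less clear. Kcnmb2, which can inactivate the channel, gave almost no signal: probe A_55_P2112524 was well above background on 2 arrays, MAT females 1 and 2, and probe A_55_P2007761 on 0, so neither was tested and no fold is given. Kcnmb4, the beta-4 subunit best known from neurons, read 0.35, 0.45, 0.64 and -0.12 in MAT males and -0.40, -0.10, 0.04 and -0.29 in AGED males on probe A_55_P2090330. In females the values were -0.14, -0.30, -0.20 and 0.47 at maturity and 0.02, 0.48, 0.26 and -0.25 in old age. MAT male 4 lay within the AGED male range, and the female groups overlapped.

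The Kcnmb4 change on that probe was -0.52 in males (SE 0.21, limma adjusted p = 0.240), or -0.25 under normexp, and 0.17 in females (SE 0.21, limma adjusted p = 0.861). The female value was 0.05 without AGED female 2, 0.34 without MAT female 4 and 0.31 with array weights. The male change less the female change was -0.69 (SE 0.30, limma adjusted p = 0.477), so no comparison passed the test. A dim Kcnmb4 probe, A_55_P2161353, ranged from -4.05 to -3.01 over the 16 arrays and stood at -0.40 in males (SE 0.21, limma adjusted p = 0.367; -0.64 with array weights) and -0.06 in females (SE 0.21, limma adjusted p = 0.966); both turned slightly positive under normexp, to 0.0020 and 0.01, and the female value also with array weights, to 0.01.

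Kcnn2 encodes SK2, a small-conductance channel of bladder smooth muscle and neurons. Its probe A_51_P309854 was printed 10 times on each array. The SD among those spots was 0.0662 on the median array and 0.37 on the array where it was highest. Over all arrays 7 of these spots were marked as outliers and left out. The level was 0.99, 1.00, 0.99 and 0.75 in MAT males and 0.64, 1.05, 0.69 and 0.44 in AGED males. In females it was 1.33, 0.81, 1.48 and 1.16 at maturity and 1.22, 0.54, 1.12 and 0.40 in old age. In males 3 of 4 AGED samples lay below all MAT samples, and AGED male 2 lay above them; in females AGED 2 and 4 were the low samples. Changes of -0.23 in males (SE 0.20, limma adjusted p = 0.597) and -0.38 in females (SE 0.20, limma adjusted p = 0.568) did not pass the test. The male value was -0.14 without AGED male 4 and also under normexp, and the female value -0.24 without AGED female 4.

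Kcnn3, which encodes SK3, a channel also found in bladder interstitial cells, had 2 tested probes. On A_55_P1997554, which ranged from -2.0 to -0.77, the change was 0.26 in males (SE 0.22, limma adjusted p = 0.581), with 0.13 without AGED male 2, 0.41 without AGED male 3 and 0.48 under normexp, and -0.03 in females (SE 0.22, limma adjusted p = 0.982). A_51_P508300 was well above background on 11 of 16 arrays (in males 3 MAT and 2 AGED, in females 4 MAT and 2 AGED), and its changes were -0.37 (SE 0.41, limma adjusted p = 0.686) and -0.40 (SE 0.41, limma adjusted p = 0.818). The male value was -0.07 without AGED male 3, -0.72 without MAT male 2 and -0.07 with a floor on low signals, the female value ran from -0.77 to -0.24 when an array was left out, and normexp turned the male value to 0.13. These values rest in part on signals at background, so no direction is read from this probe.

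Kcnn4 encodes the intermediate-conductance channel, which in many tissues works in epithelial and immune cells. Probe A_51_P389636 ranged from 0.75 to 2.05, and its changes of 0.19 in males (SE 0.24, limma adjusted p = 0.725) and 0.14 in females (SE 0.24, limma adjusted p = 0.913) were smaller than their SE. AGED samples held both the highest and the lowest value.

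Kcnq5 encodes a pore subunit of Kv7 channels, whose openers relax bladder smooth muscle. It had the most negative change of the 11 probes in females and the second most negative in males, without passing the test in either. Probe A_66_P122053 read -2.69, -2.64, -2.98 and -2.59 in MAT males and -3.13, -2.97, -4.08 and -3.50 in AGED males. In females it read -2.36, -2.59, -2.92 and -2.36 at maturity and -3.36, -3.75, -2.92 and -3.68 in old age. In males 3 of 4 AGED samples lay below all MAT samples and AGED male 2 lay just above the lowest MAT male. In females all 4 AGED samples lay below all MAT samples, as in 5.67% of all probes, but AGED female 3 and MAT female 3 both round to -2.92, so the gap between the groups is narrow.

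The Kcnq5 change was -0.69 in males (SE 0.24, 95% confidence interval -1.20 to -0.19, limma adjusted p = 0.166), which is 61.9% of the MAT level. In females it was -0.87 (SE 0.24, confidence interval -1.37 to -0.37, limma adjusted p = 0.214), or 54.7% of the MAT level. Exact permutation tests gave p = 0.0571 in males and 0.0286 in females. The changes did not differ between the sexes by test: the difference was 0.18 (SE 0.33, confidence interval -0.54 to 0.89, limma adjusted p = 0.913). In all 34 alternatives to the processing the change was negative, between -0.84 and -0.31 (the latter under normexp) in males and between -1.04 and -0.63 in females, and never called. Many of these alternatives leave the change in a sex as it is, such as those without an array of the other sex. A second probe of the gene, A_52_P83097, was well above background on 0 arrays and is given no fold.

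Peripheral neuron markers had a lower sum in AGED females, where Kcnq5 also read lower. Of 9 genes listed, 4 were well above background on all arrays; Snap25 was the most abundant and Nos1 was below background throughout. Their summed signal was 26.4, 25.1, 24.7 and 26.4 in MAT females and 16.3, 23.8, 20.1 and 15.4 in AGED females, a log2 change of -0.46 (exact permutation p = 0.0286, also 0.371 when adjusted over the 26). In males it was 26.4, 29.1, 28.3 and 27.2 at maturity and 15.2, 26.4, 28.0 and 22.4 in old age, a change of -0.31 (exact permutation p = 0.114), or -0.12 without AGED male 1. AGED and MAT females did not overlap, while AGED males 2 and 3 reached or neared the MAT range. Limma called 0 of 8 genes tested in females, with 1 lower at an unadjusted p under 0.05, where 5.77% of all genes were. The median change of the 8 genes was -0.70 in females and -0.14 in males. Schwann cell genes, of which 8 were tested, had medians of -0.43 in females, with 7 below 0 and 3 lower at an unadjusted p under 0.05, and -0.21 in males, with 6 below 0, 2 lower and 1 higher, where 8.26% and 7.75% of all genes were. Their sum, led by Mbp, stood at -0.08 in females and 0.23 in males. All 8 adipocyte genes tested lay below 0 in females, with a median of -1.16 and 1 lower at an unadjusted p under 0.05. The part of nerve and fat tissue, and of the lower share of probes above background in AGED samples, in the Kcnq5 values was not tested.

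Kcnk3 encodes TASK-1, an acid-sensitive K2P channel that conducts at rest. Probe A_52_P639402 read 1.48, 0.67, 0.90 and 1.33 in MAT males and 0.95, 1.28, 0.92 and 1.41 in AGED males, and 0.60, 0.40, 0.15 and 0.88 in MAT females and 0.91, 0.64, 0.36 and -0.05 in AGED females. The ages overlapped in both sexes, and most male values lay above most female values, a contrast that coincides with the slides. Changes were 0.05 in males (SE 0.23, limma adjusted p = 0.945) and -0.04 in females (SE 0.23, limma adjusted p = 0.979); the sign in males turned under median scaling (-0.02) and normexp (-0.26), and that in females with array weights (0.04).

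**Figure D2:**
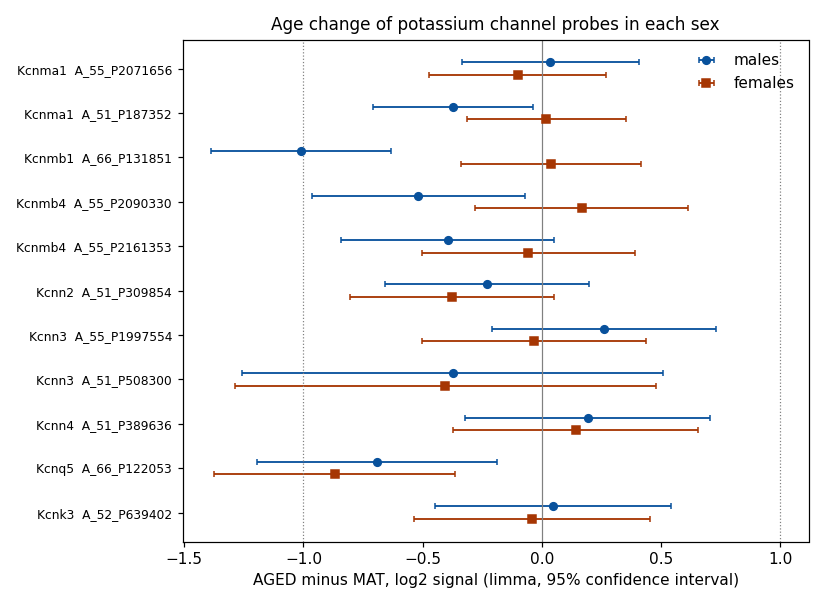
Log2 change from MAT to AGED (horizontal axis) for the 11 member probes tested, in males (circles) and females (squares), with limma estimates and 95% confidence intervals; dotted lines mark a 2-fold change. The Kcnmb1 interval in males runs from -1.39 to -0.63, and both Kcnq5 intervals lie below 0.

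Other genes of potassium channel and calcium signalling were taken as 6 lists with 108 genes, of which 87 could be tested with 1 probe each. Limma called 0 of them in either sex; at an unadjusted p under 0.05, 3 were higher and 8 lower in males (7.75% and 8.26% of all genes), and 3 were higher and 8 lower in females (4.54% and 5.77% of all genes). By the median, the lists lay between -0.42 and 0.14 in males and between -0.28 and 0.12 in females. Values of the genes with the smallest p of each list follow, none of them called. Picked for a small p, these genes do not stand for their lists.

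The remaining BK and SK family, with 6 of 9 genes tested, had the lowest median in males, -0.42, and -0.18 in females. In males 2 genes were lower at an unadjusted p under 0.05, as were 8.26% of all genes. Lrrc55, a gamma subunit of BK channels, read -2.32, -2.22, -1.13 and -1.59 in MAT males and -2.74, -2.71, -2.96 and -2.65 in AGED males. All AGED males lay below all MAT males, as in 3.81% of all probes tested. The change was -0.95 in males (SE 0.25, limma adjusted p = 0.0755) and -0.23 in females (SE 0.25, limma adjusted p = 0.830). Kcnt1, a sodium-activated channel, changed by -0.81 in males (limma adjusted p = 0.158) and by -0.48 in females (limma adjusted p = 0.592).

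In the other Kv7 family, 5 of 8 genes were tested, with medians of 0.14 and 0.12. At an unadjusted p under 0.05, 1 was lower in males and 1 higher in females, where 8.26% and 4.54% of all genes were. These were the accessory subunits Kcne3, at -0.82 in males (limma adjusted p = 0.230) and 0.26 in females (limma adjusted p = 0.859), and Kcne4, at 0.68 in females (limma adjusted p = 0.333). Kcne1 was well above background in 3 MAT males and 1 AGED male, so no fold is given. The other K2P channels, 9 of 13 tested, had medians of 0.02 and -0.06. Kcnk7 changed by 0.63 in males (limma adjusted p = 0.111) and Kcnk13 by 0.42 in females (limma adjusted p = 0.428). Kcnk15, well above background in all 4 MAT males and 4 MAT females but in 2 AGED males and 1 AGED female, did not pass the test (limma adjusted p = 0.213 in males and 0.555 in females), and no fold is given.

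Voltage-gated channels and their partners formed the longest list, with 31 of 41 genes tested and medians of -0.15 in males and -0.28 in females. At an unadjusted p under 0.05, 5 genes were lower in females, where 5.77% of all genes were. Kcna2, a delayed rectifier, changed by -1.03 in AGED females (SE 0.25, limma adjusted p = 0.159), with all AGED below all MAT, as in 5.67% of all probes tested. It was called without AGED female 3, at -1.26 (adjusted p = 0.0498), and with array weights, at -1.08 (adjusted p = 0.0282). Kcnip4, a partner of A-type channels, was well above background in 4 MAT females and 1 AGED female. It was lower in AGED females without passing the test (limma adjusted p = 0.308), and no fold is given. In males Kcnd1, an A-type channel, stood at 0.52 (limma adjusted p = 0.262), which normexp turned to -0.15, and Kcng3, a modifier subunit, at -0.68 (limma adjusted p = 0.290).

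Among calcium sources and sensors 22 of 23 genes were tested, with medians of -0.10 and -0.06. At an unadjusted p under 0.05, 1 gene was higher and 3 were lower in males (7.75% and 8.26% of all genes). In females 1 was higher and 2 were lower (4.54% and 5.77% of all genes). Pln, phospholamban, the inhibitor of the calcium pump of the sarcoplasmic reticulum, changed by -0.71 in males (SE 0.23, limma adjusted p = 0.151) and -0.90 in females (SE 0.23, limma adjusted p = 0.197). In females all AGED lay below all MAT samples, as in 5.67% of all probes tested. Orai1, the pore of store-operated calcium entry, changed by -0.56 in males (SE 0.15, limma adjusted p = 0.0904). There all AGED lay below all MAT samples too, as in 3.81% of all probes tested. Atp2b4, a calcium pump of the plasma membrane, changed by -0.60 in females (limma adjusted p = 0.370). All 14 regulators of cyclic nucleotides were tested, with medians of -0.13 and -0.18. In females 1 gene was lower at an unadjusted p under 0.05, as were 5.77% of all genes. Prkacb, a catalytic subunit of protein kinase A, stood at -0.21 in males and -0.31 in females (limma adjusted p = 0.427 and 0.436), Prkaca, another such subunit, at -0.19 in males (limma adjusted p = 0.389) and the phosphodiesterase Pde4d at -0.34 in females (limma adjusted p = 0.577). Normexp turned Prkacb in males to 0.12 and Prkaca to 0.07.

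Markers of 13 cell types, 106 genes in all, were read to check the tissue and its mixture, and limma called 0 of the 93 tested in either sex, with 13 in males (3 higher, 10 lower) and 11 in females (3 higher, 8 lower) at an unadjusted p under 0.05, where 7.75% and 8.26% of all genes were higher and lower in males and 4.54% and 5.77% in females. Sums below are summarised by the change of their mean log2 value. The urothelial list had 10 of 10 genes above background on all arrays, Upk1a highest, with log2 changes of the summed signal of 0.06 in males and 0.10 in females. When an array was left out, the male value ran from -0.0051 to 0.11 and the female value from 0.05 to 0.19. Interstitial cell and fibroblast markers, 9 of 9 above background and Dcn highest, changed by -0.29 and -0.02. The male value was -0.15 without AGED male 3 and -0.19 without MAT male 1, and the female value 0.16 without AGED female 3. Of Schwann cell markers, described with Kcnq5, 7 of 8 were above background, and Mbp stood at 0.48 in males. Endothelial markers, 6 of 7 and led by Vwf, stood at -0.38 and -0.09, and macrophage markers, 7 of 8 and led by Csf1r, at 0.26 and 0.18. AGED male 1 stood apart in both, with sums of 12.4 and 158 against 27.6 to 33.1 and 86.9 to 92.3 in the other AGED males, and without it the male changes were -0.06 and 0.06. In females 3 of 7 macrophage genes were higher at an unadjusted p under 0.05, with a median of 0.37, and the sum ran from 0.04 to 0.32 when an array was left out.

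The T cell list, 8 of 9 genes above background with Lck highest, had sums of 4.76, 4.67, 4.86 and 6.15 in MAT males and 23.7, 7.35, 5.15 and 5.51 in AGED males. The change was 0.73 in males, 0.23 without AGED male 1, and -0.13 in females, where it was 0.10 without AGED female 1 and -0.31 without AGED female 2. In males 0 of 8 T cell genes tested lay below 0, with a median of 0.63, and 2 were higher at an unadjusted p under 0.05, as were 7.75% of all genes. Mast cell markers, led by Mcpt4 with 4 of 6 above background and Ms4a2 below it throughout, changed by -0.82 in males, or -0.44 without MAT male 2, and by -0.04 in females. The female value ran from -0.29 to 0.19 when an array was left out. Erythroid markers, led by Hba-a1, changed by -0.44 and -0.43, with a range of -0.80 to -0.08 and of -0.73 to -0.16 when an array was left out. Adipocyte markers, of which 2 of 8 were above background on all arrays and Cfd was highest, had sums that changed by -0.29 and -0.74. Of the 8 genes tested 7 lay below 0 in males, with a median of -0.65. Leaving out an array moved the male sum between -1.44 and 0.91, and the female sum was -0.27 without MAT female 1. Of the male accessory gland list 0 of 7 genes were above background on all arrays; its only gene tested, Spink1, stood at 0.030 of the 75th percentile in MAT males, Svs4 and Pbsn were below background throughout, and the changes were -0.28 and -0.06, with ranges of -0.50 to 0.00 and of -0.25 to 0.09 when an array was left out. None of the sums of these 10 lists passed an exact permutation test at p under 0.05 in either sex.

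Genes most like a member were taken from 13388 candidates as those with the smallest root mean square difference over the 16 arrays, after each probe was centred on its own mean. For Kcnmb1 they were 5530601H04Rik (0.254), Vps37a (0.264) and Smarca1 (0.273), where the median candidate was at 0.715. Having been chosen for likeness, they are not independent of its pattern. The change of 5530601H04Rik was -0.76 in males (limma adjusted p = 0.143) and -0.08 in females (limma adjusted p = 0.958), Vps37a changed by -0.92 in males (limma adjusted p = 0.0146) and 0.10 in females (limma adjusted p = 0.907), and Smarca1 fell by 1.21 in males (limma adjusted p = 0.000725), with -0.38 in females (limma adjusted p = 0.376). For Kcnq5 they were Angpt2 (0.205), Ecm2 (0.220) and Maob (0.242), whose changes were -0.62, -0.53 and -0.34 in males and -0.71, -0.68 and -0.72 in females.

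Among the genes most like Kcnma1 on probe A_55_P2071656 were Sucla2 (0.150) and Map3k12 (0.160), and on probe A_51_P187352 they were Eml1 (0.108), Dbndd2 (0.133) and Immt (0.141). Tspan6 (0.159), Daglb (0.182) and Slc9a2 (0.199) came closest to Kcnmb4 on probe A_55_P2090330. All 3 were below 0 in males and above 0 in females, with no call in either. Having been chosen for likeness to that probe, they are not independent of its signs. Rapgef5 (0.193), Glp2r (0.198) and Pid1 (0.201) came closest on probe A_55_P2161353. Among the genes nearest to Kcnn2 were Adam33 (0.203) and She (0.213), and nearest to Kcnn3 on probe A_55_P1997554 were Lgi4 (0.177), Zdhhc7 (0.195) and Rnase10 (0.205). Kcnn4 was matched by Rab5if (0.187), Trpv4 (0.195) and Spryd7 (0.207), and Kcnk3 by Acot11 (0.187), Vmn1r217 (0.229) and Bnip3 (0.232).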

How the data were processed

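The authors deposited Agilent 1-colour scans, read with Feature Extraction (9.1 in the processing notes, 10.7.3.1 in the file headers). The unit of the deposited scan values is intensity, background-subtracted processed signal, and that of the authors' deposited table is log2 intensity scaled to each array's 75th percentile and centred on each probe's median. Levels here start from the processed signal: log2, averaged over the spots of a probe without those marked as outliers, less the array's 75th percentile. Probes well above background on at least 4 of 16 arrays, 36972 in all, were tested. limma fitted 4 group means with a shared spread and adjusted p by Benjamini-Hochberg; exact permutation tests were two-sided. Probes took gene symbols from RefSeq (GRCm38.p6). Every member probe is reported; from each other channel or calcium list the text names the 2 genes with the smallest p in each sex, and for each member probe above background the 3 most alike genes, some of which are not reported here. A summed list signal adds the linear signals of the tested genes of a list, 1 probe each. Members and lists were chosen with earlier results of these data known. The pipeline was tested on simulated data. Versions were R 4.3.3, limma 3.58.1, Python 3.11.15, scipy 1.17.1, pandas 2.3.3 and numpy 2.4.6.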

Additional observations from a re-analysis of the deposited data

Results flagged for a closer look

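In groups of 4, a sample was singled out when its gap to the nearest other sample, divided by the range of the group, was above Dixon's 95% critical value for 4 samples. This happened in 3 of 56 groups, and chance alone does so in about 1 in 20 groups. Kcnmb1 in MAT female 4 was 0.94, below the other MAT females at 1.25 and above. Kcnn2 in MAT male 4 was 0.75, below the other MAT males at 0.99 to 1.00. The 75th percentile of log2 signal in AGED male 1 was 9.18. The age change differed between males and females in 36 probes by limma's test of the difference, and no member is among them.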

How the results depend on the processing

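There were 34 alternatives to the processing, 16 of which left out an array. Of 1077 changes of member probes under them, 1020 kept their sign and their side of the threshold, 7 lost the call (all Kcnmb1 in males, given above), 3 gained it and 47 changed sign, none of the latter called. Of 809 changes of other named genes the numbers were 800, 0, 6 and 3. The causes were not tested. Many of these values could not have changed sign. The change in a sex stays as it is when an array of the other sex is left out. It also stays when only the test, the threshold or the filter on probes differs. A fit of each sex alone has fewer residual degrees of freedom and also its own spread. The SE of Kcnmb1 in males was 0.22 in that fit, against 0.18.

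Probes called in males, 292, became 919 under normexp, 879 with no filter on dim probes, 655 and 0 by the methods' t-test unadjusted and adjusted, 1023 with limma's unadjusted p, 582 with no fold limit and 9 with each sex fitted alone; leaving out an array gave 170 to 508. The share of lower probes was 68.8%; it was 91.9% under normexp, 79.3% under median scaling and 24.1% with no filter, where most were higher, and between 55.6% and 75.4% under the other alternatives that called any. The 1 member called in males became 0 with the adjusted t-test, each sex alone and array weights, and 0 to 1 leaving out an array. Probes called in females, 64, became 42 under quantile normalization, 12 with no filter, 529 and 2 by the t-test, 666 unadjusted, 123 alone, 227 with array weights and 8 with the replicate block; leaving out an array gave 3 to 152. For the difference between sexes, 36 became 59 under median scaling, 571 under normexp, 90 with probes above background on all 16 arrays, 8 with no filter, 3541 unadjusted, 376 with array weights, 90 with a variance trend and 10 with the replicate block; leaving out an array gave 8 to 369. The 0 members called there became 1 under normexp and 2 unadjusted.

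Under normexp the male change became 0.13 for Kcnn3 (A_51_P508300), 0.0020 for Kcnmb4 (A_55_P2161353), -0.26 for Kcnk3, 0.12 for Prkacb, 0.0703 for Prkaca and -0.15 for Kcnd1, the female change 0.0136 for Kcnmb4 (A_55_P2161353), and the difference between sexes -0.26 for Kcnk3 and -0.0290 for Kcnn4. Median scaling gave -0.0270 for Kcnma1 (A_55_P2071656) and -0.0160 for Kcnk3 in males and -0.0137 for the Kcnn3 (A_51_P508300) difference, which quantile normalization put at -0.0777. Array weights gave 0.0132 for Kcnmb4 (A_55_P2161353) and 0.0418 for Kcnk3 in females. Leaving out an array, the change of Kcnk3 ran from -0.19 to 0.13 in females, -0.0937 to 0.17 in males and -0.0828 to 0.24 for their difference. Kcnma1 ran from -0.0474 to 0.11 (A_51_P187352) in females and from -0.0597 to 0.13 (A_55_P2071656) in males. In females Kcnmb1 ran from -0.0448 to 0.11, Kcnmb4 (A_55_P2161353) from -0.15 to 0.0389 and Kcnn3 (A_55_P1997554) from -0.14 to 0.13. The Kcnn3 (A_51_P508300) difference ran from -0.32 to 0.40, and Kcnn4 from -0.0118 to 0.33 in females, -0.00885 to 0.39 in males and -0.15 to 0.25 for their difference.

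The replicate block took samples with the same number as sets. It left 235 probes called in males, and Kcnmb1 kept its call there with an adjusted p of 0.0165. Same-numbered samples did not correlate more than others (mean r -0.00623 over 24 pairs, against 0.00220), so these correlations show no pairing by number. The number is also the column of the sample on its slide. Dim probes such as A_51_P508300, above background on 11 arrays, limit what their changes can show. The dim Kcnma1 probe in the subunit difference and the list sums without each array were chosen after seeing the data.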
